A study of Mus musculus with 35 samples.

Results

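The genes described here handle iron in the embryonic mouse brain: *Tfrc*, *Trf*, *Slc40a1*, *Slc11a2*, *Fth1*, *Ftl1*, *Hmox1* and *Ireb2*. They are 8 of the 53465 genes in the table of bulk RNA-seq, chosen by name, and all 8 were found there and in the single-cell tables. Iron crosses the brain endothelium bound to transferrin, which docks on the transferrin receptor, is taken into endosomes and releases its iron there for transport into the cytosol. Iron that is not used is held inside ferritin shells or leaves the cell through ferroportin, and iron regulatory proteins tune these steps by binding hairpins, called iron-responsive elements, in the transcripts of the same genes. Macrophages and microglia are known for taking iron from heme as well.

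The study sorted microglia, endothelial, mural and neural cells by FACS from the dissociated brains of wild-type mouse embryos at E14.5. For bulk RNA-seq, each population of 3 brains gave 1 library, or 12 in all, named by population (N for neural, Mu for mural and Ec for endothelial cells, Mi for microglia) and by brain, such as Ec-340, Ec-343 and Ec-346. For scRNA-seq by mCEL-Seq2, single cells of the same populations were sorted into wells of 3 wild-type plates. *Mof* knockout plates were not used. Neural cells were taken as cells without the surface markers of the other gates, so this population holds every cell that lacked them, while mural cells were sorted as PDGFRβ high, endothelial cells as PECAM1 and CD102 positive, and microglia as CD45 medium cells with CD11b (bulk) or, in the well table, CD41. In bulk libraries fewer cells of a type and less RNA per cell cannot be told apart. Neural libraries were made with another kit (TruSeq) than the 3 other populations (SMART-Seq v4 and Nextera XT), so kit and neural population cannot be told apart in bulk, whereas all wells shared 1 chemistry.

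The bulk libraries held 18900569 to 98414914 reads on genes in neural, 25099023 to 63107352 in mural, 17638358 to 21088739 in endothelial and 24464777 to 29619163 in microglia samples. Each population had the highest sum of its own 6 marker genes, such as 150057 to 170704 normalized counts of the endothelial list in endothelial libraries against 97.2 to 3605 in the others. Of 994 wells in the 4 gates, 686 had more than 1500 transcripts, with medians of 6408 (endothelial) to 10761 transcripts (microglia). This is more than the study states for the same filter, and the reason was not tested. No doublet caller was run, since each well was sorted to hold 1 cell, and libraries share cell barcodes by design. The labels and the well table number 1 of the 3 libraries of plate 3 differently, and it was given the wells under the number of its deposited table, so plate 3 values rest on that match. Plate 3 was thin, with 14 neural, 10 mural, 13 endothelial and 6 microglia cells, and its endothelial gate held 2839 CPM (transcripts of a gene scaled to the same total in every gate and plate) of the mural list, against 467 on plate 1 and 99.0 on plate 2.

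To show hairpins of the kind that iron regulatory proteins are known to bind, the annotated GENCODE vM21 transcripts of the 8 genes were searched for the loop CAGTGN, where N is any base but G, with 5 pairing bases on each side (G-T pairs allowed) and a C just before the 5′ side. A match was found in 4 genes. *Tfrc* had 4 in its 3′ UTR, the place where such elements are known to protect the transcript when iron is low, and *Slc40a1*, *Fth1* and *Ftl1* had 1 each in the 5′ UTR, where they are known to block translation when iron is low. The elements are given 5′ to 3′ on the transcript's strand, with the loop in capitals.
Tfrc 1: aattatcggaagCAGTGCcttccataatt
Tfrc 2: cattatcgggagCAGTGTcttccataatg
Tfrc 3: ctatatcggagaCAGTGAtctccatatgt
Tfrc 4: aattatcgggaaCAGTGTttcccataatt
Slc40a1: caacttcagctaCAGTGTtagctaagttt
Fth1: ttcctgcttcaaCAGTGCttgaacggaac
Ftl1: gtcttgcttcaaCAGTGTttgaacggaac

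In GRCm38 (mm10) the *Tfrc* elements lie on the plus strand at chr16:32631219-32631247, chr16:32631598-32631626, chr16:32631663-32631691 and chr16:32631710-32631738. That of *Slc40a1* lies on the minus strand at chr1:45925465-45925493, that of *Fth1* on the plus strand at chr19:9982732-9982760, and that of *Ftl1* on the minus strand at chr7:45459779-45459807. The stems of both ferritin elements have the same 5 bases on each side of the loop, TTCAA and TTGAA. The same search matched 222 of 21901 protein-coding genes (1.01%), and 123 (0.562%) in a UTR. No match to these letters was found in *Trf*, *Slc11a2*, *Hmox1* or *Ireb2*. *Slc11a2* is known to have transcripts with and without such an element in the 3′ UTR, which this search did not find. Counts of transcripts do not show how much of each was translated.

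In the bulk libraries the 8 genes fell into different orders of population (the plot of normalized counts by population). Endothelial cells were highest for the 3 genes of transferrin uptake and iron export, *Tfrc*, *Trf* and *Slc40a1*. Microglia were highest for both ferritin chains and for *Hmox1*. Neural cells were highest for *Ireb2* and *Slc11a2*, and lowest for 5 of the 8, namely *Trf*, *Slc40a1*, *Fth1*, *Ftl1* and *Hmox1*. The step from the highest to the next population was not called by limma for *Trf* (adjusted p = 0.31) and *Slc11a2* (0.093). Differences below are on the log2(normalized count + 1) scale, which understates the change of low genes, with adjusted p-values from limma over 19765 genes.

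**Figure D1:**
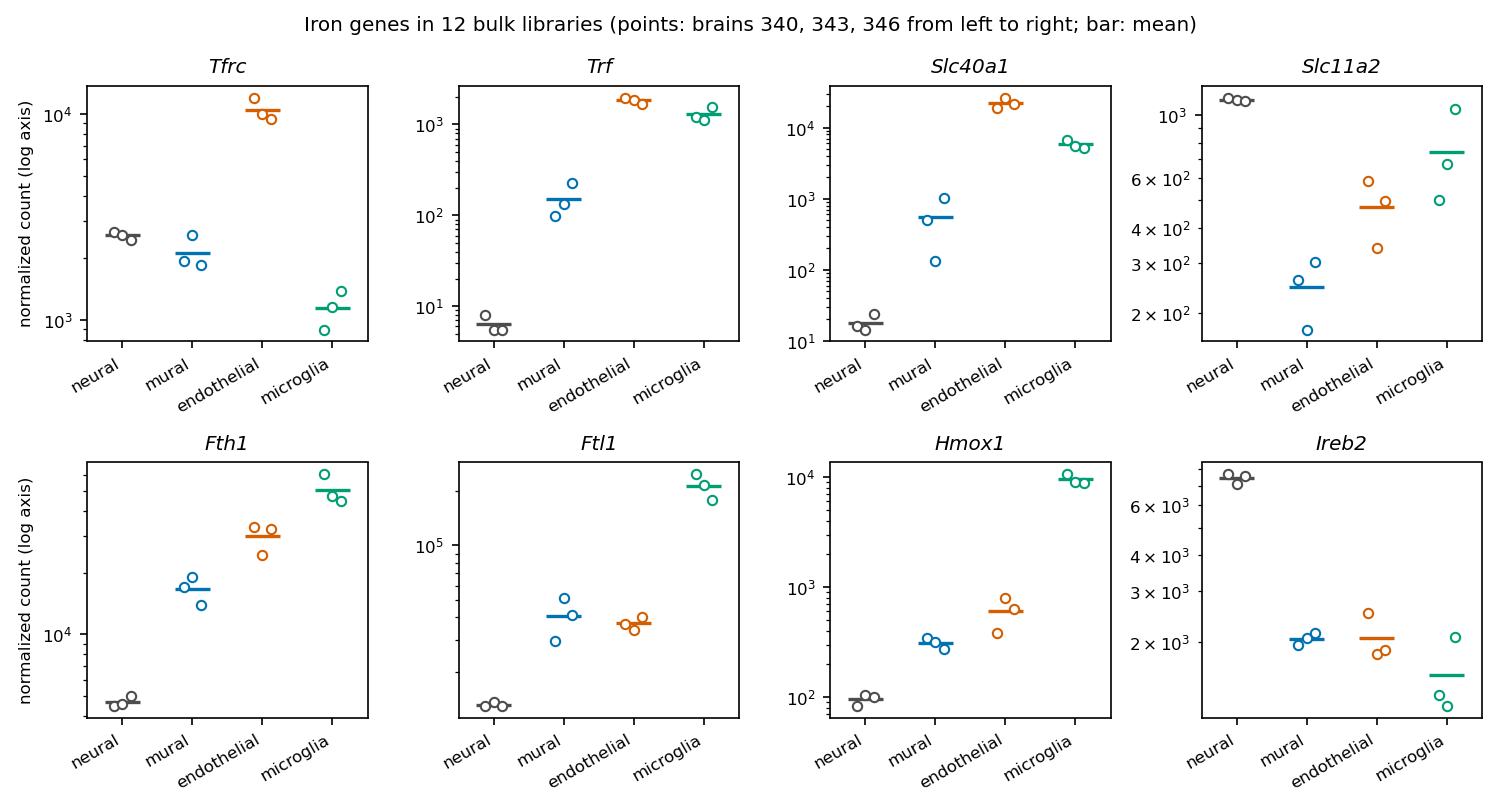
Normalized counts (log axis, one scale per gene) of the 8 iron genes in the 12 bulk libraries, with 1 point per brain and a bar at the mean of 3. Endothelial points lie above all others for *Tfrc*, *Trf* and *Slc40a1*, and microglia points above all others for *Fth1*, *Ftl1* and *Hmox1*.

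*Tfrc* (ENSMUSG00000022797, chromosome 16, 32608920 to 32632794) encodes transferrin receptor 1, through which cells take up iron-loaded transferrin. The endothelial libraries Ec-340, Ec-343 and Ec-346 held 11955, 9976 and 9408 normalized counts. Neural libraries held 2679, 2576 and 2446, mural libraries 1924, 2567 and 1850, and microglia 897, 1154 and 1375. The endothelial libraries were above all others, and the microglia libraries below all others. The endothelial level was 2.02 ± 0.18 (log2, SE) above neural (adjusted p = 5.1e-06), 2.31 above mural (6.5e-06), and microglia minus endothelial was -3.21 (2.4e-07). Neural and mural levels, next to each other in the order, overlapped (adjusted p = 0.20, 95% interval of mural minus neural -0.70 to 0.11). Microglia lay below mural by 0.89 (adjusted p = 0.0027), a call lost without the brain of N-343 (difference -0.76, adjusted p = 0.060).

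*Tfrc* is also abundant in red cell precursors, and red cell transcripts were not spread evenly over the populations. The summed 12 erythroid markers, mostly globins, came to 14881, 13394 and 34609 normalized counts in Ec-340, Ec-343 and Ec-346, 9170 to 11979 in neural, 1774 to 2316 in microglia and 257 to 661 in mural libraries. *Gata1* was at 0 in all endothelial and neural libraries. In the wells, 4 of the 12 erythroid genes were listed, and they came to 6.25, 3.14 and 0 CPM in the endothelial gate, where *Tfrc* stood at 484, 432 and 314 CPM. The part of red cell precursors in the bulk *Tfrc* levels was not tested.

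*Trf* (ENSMUSG00000032554, chromosome 9, 103204001 to 103230444) encodes transferrin, the protein that carries iron in blood and brain fluid. Endothelial libraries held 1972, 1871 and 1686 normalized counts and microglia 1198, 1124 and 1561. Mural libraries held 97.9, 132 and 229, and neural libraries 8.01, 5.54 and 5.55. Endothelial cells and microglia stood high, mural cells lower and neural cells near 0. The gene is best known from liver and choroid plexus. The 5 choroid plexus epithelium markers came to 45.2 to 353 normalized counts in endothelial and 0 to 74.3 in microglia libraries. Endothelial cells and microglia did not pass the test of a difference (microglia minus endothelial -0.52, 95% interval -1.32 to 0.28, adjusted p = 0.31), although their libraries did not overlap. Microglia lay 3.15 ± 0.36 above mural (adjusted p = 4.6e-05), and mural 4.31 above neural (2.9e-06). The gene *Gm20425* shares 2108 exon bases with *Trf* on the same strand, and stood at 3.80 normalized counts in mural and 0 in the other libraries' means.

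*Slc11a2* (ENSMUSG00000023030, chromosome 15, 100387898 to 100425072) encodes DMT1, which moves ferrous iron out of the endosome. Its levels were the lowest per length of all members in endothelial cells. Neural libraries held 1155, 1129 and 1126 normalized counts, microglia 500, 674 and 1049, endothelial 585, 341 and 499, and mural 262, 175 and 302. No step between neighbours in this order passed the test (adjusted p = 0.093 neural to microglia, 0.19 microglia to endothelial, 0.052 endothelial to mural). Steps of 2 or 3 places did: neural libraries exceeded mural by 2.24 ± 0.33 (adjusted p = 0.00017) and endothelial by 1.29 (0.0058), and microglia exceeded mural by 1.55 (0.0031). The call against endothelial was lost without the brain of N-343 (difference -1.08, adjusted p = 0.058). The tables give 1 value per gene, so its transcripts with different ends were not separated. The opposite-strand gene *Gm5475* shares 402 exon bases with it, at a mean of 10.9 normalized counts.

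*Slc40a1* (ENSMUSG00000025993, chromosome 1, 45908068 to 45926523) encodes ferroportin, the iron exporter. Endothelial libraries held 19029, 26329 and 21348 normalized counts, microglia 6650, 5514 and 5226, mural 494, 131 and 1032, and neural 16.0, 14.4 and 23.8. None of the 4 ranges overlapped. Each step of the order was called, from endothelial to microglia (1.93 ± 0.57, adjusted p = 0.024), from microglia to mural (3.82, 0.00032) and from mural to neural (4.45, 7.0e-05). With a brain left out, the step from microglia to mural ranged from 3.0 to 4.6 and that from mural to neural from 4.0 to 5.1. Relative to their level the mural libraries spread most, from 131 in Mu-343 to 1032 in Mu-346. The step from endothelial to microglia was lost without the brain of Ec-340 (-2.14, adjusted p = 0.14) or that of Ec-346 (-1.89, 0.072). Between endothelial and neural cells the difference reached 10.21 (adjusted p = 1.6e-07), more than for any other member and pair.

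*Fth1* (ENSMUSG00000024661, chromosome 19, 9980598 to 9985098) encodes the ferritin heavy chain, which oxidizes iron as it enters the shell. Microglia libraries held 60280, 47254 and 44528 normalized counts and endothelial 33436, 24329 and 32529. Mural libraries held 17060, 19027 and 13852, and neural libraries 4471, 4555 and 5016. Here too no ranges overlapped, and all 3 steps were called: microglia above endothelial by 0.75 ± 0.16 (adjusted p = 0.0038), endothelial above mural by 0.85 (0.0024) and mural above neural by 1.82 (4.1e-06). The first step shrank to 0.24 under quantile normalization (adjusted p = 0.29), and the next to 0.66 without the brain of N-346 (0.054).

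*Ftl1* (ENSMUSG00000050708, chromosome 7, 45457944 to 45459884) encodes the ferritin light chain, which helps the iron core form. Microglia libraries held 246899, 214014 and 177220 normalized counts, the highest values of any member. Mural libraries held 29663, 51515 and 41463, endothelial 36991, 33919 and 40373, and neural 12971, 13755 and 12998. Microglia exceeded mural by 2.40 ± 0.18 (adjusted p = 1.5e-06), mural and endothelial levels overlapped (endothelial minus mural -0.11, 95% interval -0.50 to 0.28, adjusted p = 0.70), and endothelial exceeded neural by 1.48 (4.0e-05). The table lists 9 near-identical copies of *Ftl1*, whose reads cannot be split from it with certainty. They held 1.85% of the summed counts in neural and 6.90% to 7.18% in the other populations. A single copy of *Fth1* held at most 0.392%.

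*Hmox1* (ENSMUSG00000005413, chromosome 8, 75093621 to 75100589) encodes heme oxygenase 1, which frees iron from heme. Microglia libraries held 10629, 9086 and 8858 normalized counts, endothelial 379, 801 and 638, mural 341, 314 and 274, and neural 82.8, 104 and 99.6. Microglia exceeded endothelial cells by 4.03 ± 0.27 (adjusted p = 7.7e-07). Endothelial exceeded mural by 0.91 (0.029), with ranges that did not overlap, and this call was lost without the brain of N-343 (0.68, adjusted p = 0.22) or that of N-346 (0.75, 0.24). Mural exceeded neural by 1.69 (0.00034).

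*Ireb2* (ENSMUSG00000032293, chromosome 9, 54863789 to 54912530) encodes iron regulatory protein 2, which binds the elements shown above. It was the one member with its highest level in neural cells and a called step below it. Neural libraries held 7687, 7093 and 7567 normalized counts, endothelial 2511, 1810 and 1872, mural 1950, 2054 and 2144, and microglia 1305, 1192 and 2081. Neural exceeded endothelial by 1.87 ± 0.20 (adjusted p = 2.1e-05). Endothelial and mural levels differed by 0.01 (95% interval -0.46 to 0.45), and mural and microglia by 0.47 (adjusted p = 0.096, 0.045 without the brain of N-346).

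Markers of border macrophages, which also handle iron and heme, were present in the microglia libraries. The 8 markers summed to 31489, 31454 and 40483 normalized counts in Mi-340, Mi-343 and Mi-346, to 6150 to 8196 in endothelial, 441 to 1095 in mural and 41.4 to 46.2 in neural libraries, and none of the 8 was at 0 in all microglia libraries. In the microglia libraries *Stab1* made up 12568, 16026 and 20863 of these sums, while *Mrc1* had a mean of 9573 and *F13a1* of 6472. *Cd163* was found there in Mi-343 alone (61.7). *Cbr2* was the only marker not highest in microglia (mean 15.9 against 40.0 in endothelial and 32.3 in mural libraries). In endothelial libraries nearly all of the sum was 1 gene, *Stab1*, at 7876, 7985 and 5871, while *Mrc1* stood at 44.3, 15.6 and 0, *Lyve1* had a mean of 5.94, *F13a1* stood at 53.2, 0 and 238, *Pf4* at 0, 82.3 and 27.1 and *Cbr2* at 10.6, 109 and 0, and *Ms4a7* and *Cd163* were at 0. In the wells *Stab1* was found in 47.1% of endothelial and 41.4% of microglia cells. The oligodendrocyte lineage list came to 435 to 689 in microglia and 18.5 to 152 in endothelial libraries, and the fibroblast list, at 8873 to 11802 in mural libraries, to 235.7 or less in endothelial and 22.6 or less in microglia libraries. What part these cells had in the levels was not tested.

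Compared per kilobase of each gene's principal transcript, both ferritin chains led in all 4 populations. *Ftl1* came to 219740 ± 36010 normalized counts per kilobase in microglia (SD, n = 3) and *Fth1* to 54561 ± 9062. The third place went to a different gene in each population: *Hmox1* in microglia (6070 ± 614), *Slc40a1* in endothelial (6598 ± 1107), *Tfrc* in mural (432 ± 80.6) and *Ireb2* in neural cells (1291 ± 54.4). The last place was taken by *Tfrc* in microglia (234 ± 48.9), *Slc11a2* in endothelial cells (157 ± 40.9) and *Trf* in mural (59.6 ± 26.5) and neural cells (2.48 ± 0.55). The microglia levels of *Tfrc*, *Slc11a2* (245 ± 92.7) and *Ireb2* (264 ± 83.9) lay within their spread of each other. In mural libraries the last place was not clear either, as *Trf* overlapped *Slc11a2* (81.5 ± 21.6). In Mu-343 *Slc40a1* (38.9) lay below *Trf* (51.5). The mural mean of *Ireb2* (355 ± 16.9) lay within the SD of *Tfrc*.

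Between pairs of populations the members were called as follows, with the share of all tested genes called the same way beside each count. Against neural cells, 5 members were higher in mural (background 25.8%) and 2 lower (28.7%), 6 were higher in endothelial (27.1%) and 2 lower (30.6%), and 5 were higher in microglia (29.3%) and 2 lower (30.4%). Within 1 kit, endothelial cells had 5 members above mural (14.3%) and 0 below (13.5%), namely *Tfrc*, *Trf*, *Slc40a1*, *Fth1* and *Hmox1*. At an unadjusted p under 0.05 none was below either by limma, and by edgeR on recovered reads none was called lower. The 5 became 3 without the brain of N-346. Microglia had 6 above mural (20.1%) and 1, *Tfrc*, below (17.9%). Microglia had 3 above endothelial cells (17.0%), namely *Fth1*, *Ftl1* and *Hmox1*, and 2 below (15.3%), *Tfrc* and *Slc40a1*. The genes were picked with earlier results in view, so these counts describe them only.

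In the single cells each transcript was counted by its molecular identifier, and the transcripts of each gate were summed by plate, which is the replicate here. The endothelial gate again had the highest mean of *Tfrc*, *Trf* and *Slc40a1*, and the microglia gate that of *Fth1*, *Ftl1* and *Hmox1* (the plot of CPM by gate and plate), while the order of the other gates differed from bulk for *Tfrc* and *Ftl1*. The order also differed for *Slc11a2*, which had its highest mean in the endothelial gate and not in neural cells. For *Ireb2* the mean of mural cells lay above that of endothelial cells through plate 3 alone (124 against 28.5 CPM). On plates 1 and 2 endothelial cells were higher (74.0 and 88.0 against 63.3 and 68.5). Adjusted p-values are from edgeR's quasi-likelihood test over 9281 genes, and log2 fold changes are given with approximate SEs. Plates may hold cells of the same or of different brains, so the p-values measure the spread between plates.

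**Figure D2:**
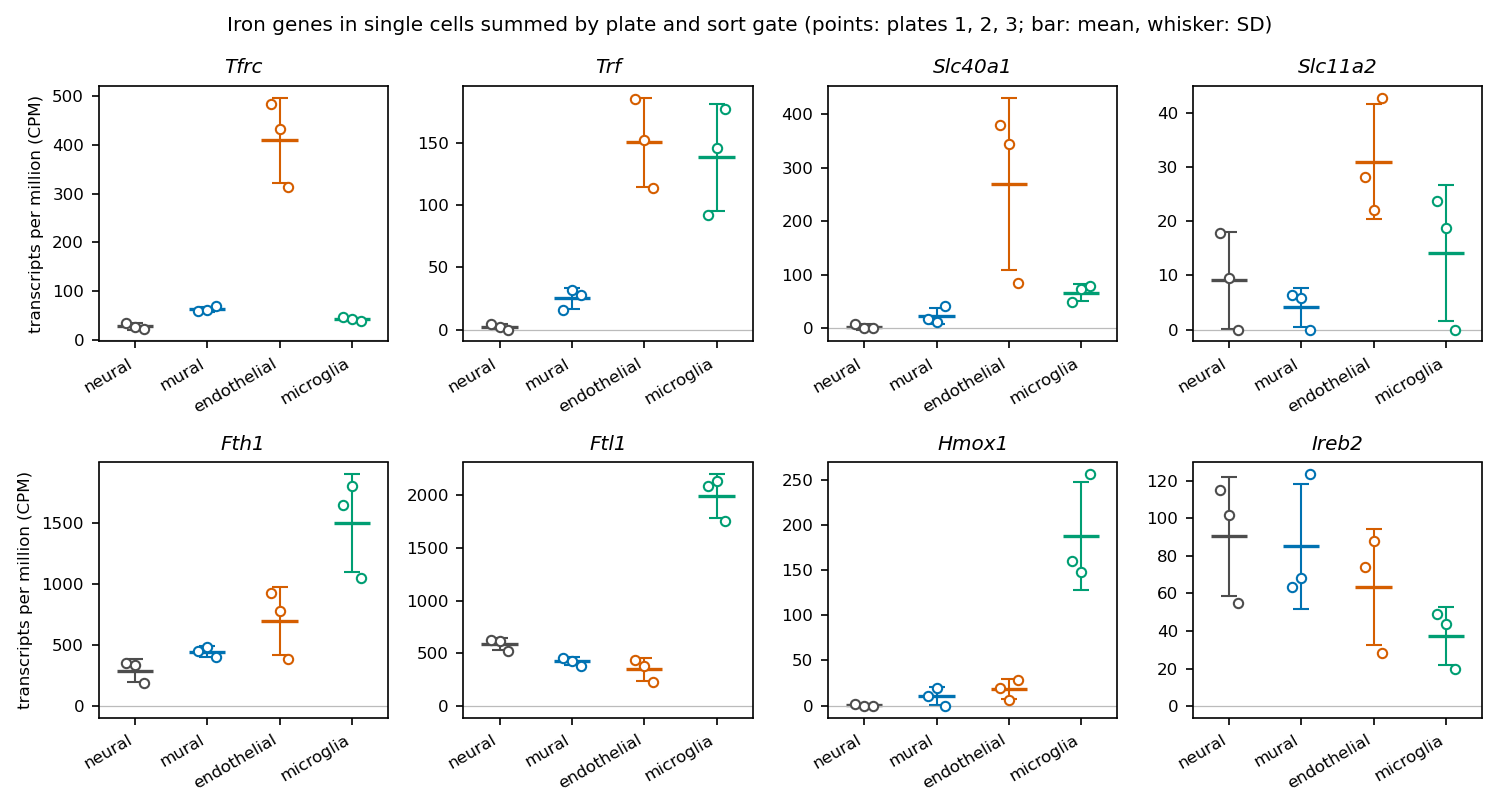
Transcript levels (CPM, linear axis, one scale per gene) of the 8 iron genes in single cells summed by plate and sort gate, with 1 point per plate, a bar at the mean and a whisker of 1 SD. The endothelial gate stands highest for *Tfrc* (314 to 484 CPM) and *Slc40a1* (85.5 to 381), and the microglia gate for *Fth1*, *Ftl1* and *Hmox1*.

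*Tfrc* in the endothelial gate stood at 484, 432 and 314 CPM on plates 1, 2 and 3, above 58.6, 61.4 and 68.6 in mural, 45.9, 42.0 and 39.4 in microglia and 35.4, 26.0 and 21.9 in neural cells. The endothelial gate was 2.98 ± 0.28 above the mural gate (adjusted p = 2.4e-13), next to it in the order. Below it, mural and microglia (adjusted p = 0.71) and microglia and neural cells (0.084) did not pass the test. Mural cells exceeded neural cells by 1.01 ± 0.38 (0.032), a call lost with DESeq2 (0.10), without a filter on low counts (0.056) and without plate 1 (0.12) or plate 2 (0.37). A transcript was found in 168 of 225 endothelial cells, or 74.7% (exact 95% interval 68.5 to 80.2), in 31.0% of mural, 32.0% of microglia and 17.1% of neural cells. After thinning every cell to 1500 transcripts these shares were 45.3%, 12.4%, 9.38% and 4.07%. Intervals cover counting error only.

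*Trf* stood at 186, 152 and 114 CPM in endothelial and 91.7, 146 and 177 in microglia cells, which overlapped (adjusted p = 0.49). Mural cells held 15.8, 31.9 and 27.5 CPM. Neural cells held 3 transcripts in all, for 4.43, 2.37 and 0 CPM. Mural cells exceeded neural cells in the test (2.89 ± 0.72, adjusted p = 0.0011, and 0.18 without plate 2). The ratio of endothelial to neural levels was 54.7 with an exact 95% counting interval of 18.5 to 267. A transcript was found in 55.6% of endothelial cells (48.8 to 62.2), 60.9% of microglia (51.9 to 69.4), 16.2% of mural and 2.44% of neural cells. Thinned to equal depth, the shares were 19.6% in endothelial and 11.7% in microglia cells, whose median depths had been 6408 and 10761 transcripts. For comparison, the neuronal tubulin gene *Tubb3* was found in 73.2% of neural, 8.57% of mural, 5.33% of endothelial and 0.781% of microglia cells, and the mural gene *Rgs5* in 95.7% of mural, 25.2% of neural, 20.9% of endothelial and 23.4% of microglia cells. Shares of members at or below 25.2%, before thinning, were therefore read neither as expression nor as its absence. This cutoff comes from *Rgs5*, at a mean of 561793 normalized counts in bulk mural libraries, and may be too strict for genes with lower levels.

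*Slc40a1* stood at 381, 344 and 85.5 CPM in endothelial, 48.8, 73.0 and 78.8 in microglia, 17.4, 11.8 and 41.2 in mural and 8.86, 0 and 0 in neural cells. The order was that of the bulk libraries. Endothelial cells exceeded microglia by 2.20 ± 0.31 (adjusted p = 2.0e-08), and microglia exceeded mural cells by 2.24 (2.1e-05, and 0.10 without plate 2), while mural and neural cells did not pass the test (1.86, adjusted p = 0.068). That difference passed it with a block for the plate (0.048), without plate 3 (0.046) and without plate 1 (0.014), where neural cells held no transcript of the gene and the fitted difference was 5.53, which is no bound. The plate 3 endothelial value, from 13 cells, was the low one. A transcript was found in 68.0% of endothelial cells (61.5 to 74.0), 42.2% of microglia, 10% of mural and 2.44% of neural cells, and after thinning in 36.9%, 9.38%, 3.33% and 0.813%.

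*Slc11a2* was near the limit of these data. It stood at 28.1, 22.0 and 42.7 CPM in endothelial, 23.7, 18.6 and 0 in microglia, 17.7, 9.47 and 0 in neural and 6.33, 5.91 and 0 in mural cells, where 9 transcripts were counted in 210 cells. No step between neighbours in this order passed the test. Endothelial cells exceeded mural cells (2.29 ± 0.57, adjusted p = 0.0016) and so did microglia (2.05, 0.0051), but neither was called by DESeq2 (0.074 and 0.18), and the gene fell below the filter without plate 1 or plate 2.

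*Fth1* stood at 1648, 1804 and 1045 CPM in microglia, 924, 775 and 385 in endothelial, 451, 487 and 398 in mural and 352, 336 and 186 in neural cells. The order was again that of bulk, but only its first step was called (1.18 ± 0.34, adjusted p = 0.0043), and it was lost without plate 1 (0.098) or plate 2 (0.11). The step from endothelial to mural cells was 0.85 in both assays. Its adjusted p was 0.073 in the wells, 0.0020 with a block for the plate and 2.5e-05 without plate 3. Microglia cells held a median of 11 *Fth1* transcripts (quartiles 6 and 18), endothelial cells 5 (2 and 9.01), mural cells 3 and neural cells 2.

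*Ftl1* stood at 2086, 2139 and 1758 CPM in microglia, and the ranges of the other gates lay far below. Neural cells held 629, 616 and 526, mural 459, 430 and 385, and endothelial cells 438, 384 and 228. Microglia exceeded neural cells by 1.96 ± 0.34 (adjusted p = 1.8e-06). Neural cells, lowest in bulk, came next in the wells. In the wells, endothelial minus neural was -0.58 ± 0.34 (adjusted p = 0.18, and 0.039 with a block for the plate) and mural minus neural -0.53 ± 0.34 (0.25), against 1.48 ± 0.18 and 1.59 ± 0.18 in bulk. Of the 11 copies of members in the bulk table, 1 is listed for the wells, and the part of copies in the difference between the assays was not tested. The median was 17.5 transcripts per microglia cell (quartiles 8.76 and 28.1) against 4 in neural, 3 in mural and 2 in endothelial cells.

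*Hmox1* stood at 160, 148 and 256 CPM in microglia, 19.8, 6.28 and 28.5 in endothelial, 11.1, 20.1 and 0 in mural and 2.21, 0 and 0 in neural cells. Microglia exceeded endothelial cells by 3.60 ± 0.37 (adjusted p = 3.7e-12), which did not differ in the test from mural cells (0.94). Mural cells exceeded neural cells (3.54, 0.0047). With a plate left out this difference ranged from 2.19 to 5.61, and it was not called without plate 2 (2.19, adjusted p = 0.36). The neural value rests on 1 transcript, which gives a microglia to neural ratio of 152 with a counting interval of 27.0 to 6039. A transcript was found in 65 of 128 microglia, or 50.8% (41.8 to 59.7), 18.8% after thinning, and in 7.11% of endothelial, 10% of mural and 0.813% of neural cells.

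*Ireb2* stood at 115, 102 and 54.7 CPM in neural, 63.3, 68.5 and 124 in mural, 74.0, 88.0 and 28.5 in endothelial and 48.8, 43.5 and 19.7 in microglia cells. No step between neighbours passed the test (adjusted p = 0.21, 0.69 and 0.15). Neural cells exceeded microglia by 0.89 ± 0.33 (0.023), against 2.33 in bulk, and this call was lost with DESeq2 (0.11), without a filter on low counts (0.13) and without plate 1 (0.36) or plate 2 (0.34). The higher neural level relative to mural and endothelial cells, 1.86 and 1.87 in bulk, was 0.52 and 0.28 in the wells.

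Since all wells shared 1 chemistry, the 2 assays were set side by side (the plot of differences in both assays). In the wells 3 members were called between mural and neural cells (33.1% of all genes called in either direction), 5 between endothelial and neural (36.4%), 6 between microglia and neural (44.3%), 4 between endothelial and mural (20.7%), 6 between microglia and mural (37.7%) and 5 between microglia and endothelial cells (36.2%). Without plate 3 the first count was 5, without plate 2 it was 0, and without plate 1 the next was 3. Over all genes these 3 fits called 3709 of 10091, 1050 of 6570 and 1265 of 6427. With all plates the 2 pairs had 3069 and 3381 of 9281. Of 48 combinations of member and pair, 39 were called in bulk and 29 in the wells, 27 of them in both. All 27 had the same direction. The like overlap over all genes was not counted, so this and the counts that follow describe the members only. Among the 24 without neural cells, 14 were called in both, 3 only in bulk and 1 only in the wells, and among the 24 with neural cells the numbers were 13, 9 and 1. Of the 39 bulk calls 4 had the other sign in the wells, without passing the test there, and all 4 were against neural cells. *Tfrc* between mural and neural cells was called in the wells alone, with the other sign in bulk. The 4 were *Tfrc* in microglia (-1.19 ± 0.18 in bulk, 0.83 ± 0.40 in the wells), *Slc11a2* in endothelial cells (-1.29 ± 0.33 and 1.23 ± 0.55) and *Ftl1* in mural and endothelial cells. The difference between the assays was not tested.

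**Figure D3:**
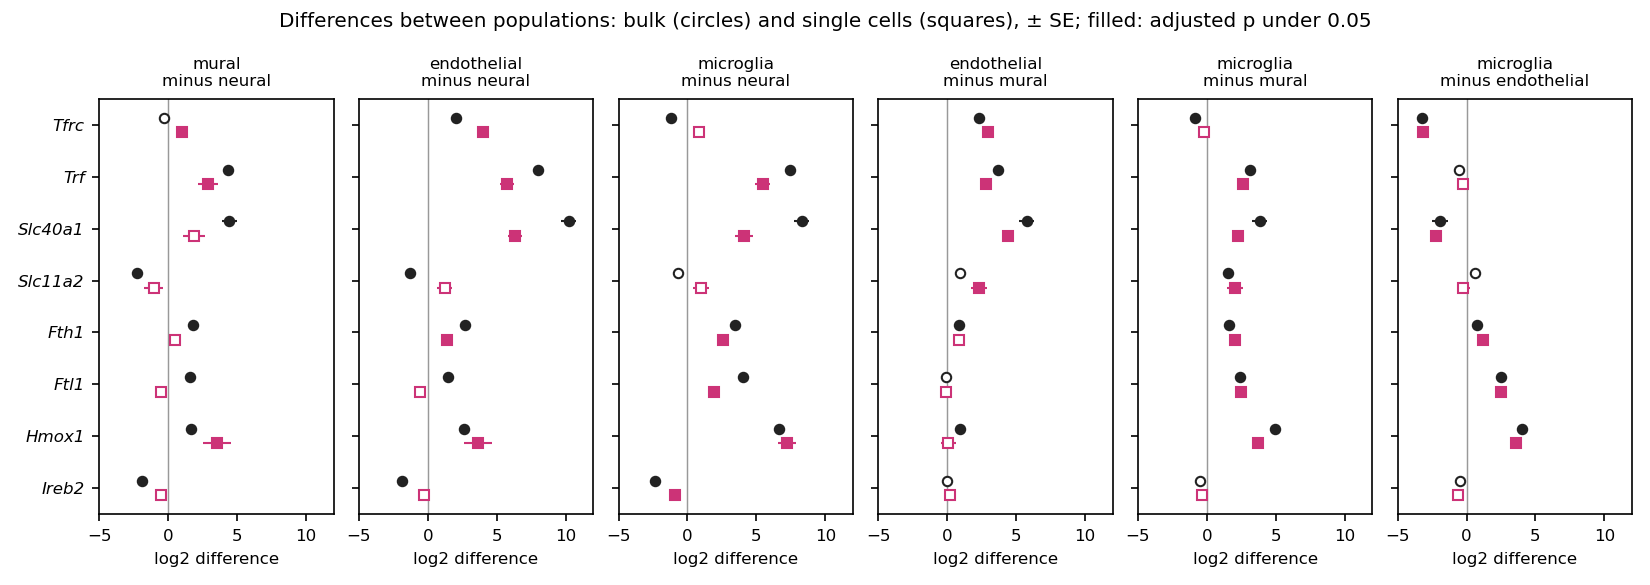
Log2 differences of the 8 iron genes between each pair of populations, ± SE, in bulk libraries (circles) and single cells summed by plate (squares), filled where the adjusted p was under 0.05. In the panel of endothelial minus neural, *Ftl1* and *Slc11a2* have their circles and squares on opposite sides of 0.

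The ratio of the ferritin chains, which form mixed shells, also set the populations apart (the plot of the ratio). In bulk, per kilobase of principal transcript, *Fth1* to *Ftl1* was 0.942, 0.747 and 0.840 in endothelial libraries, 0.599, 0.385 and 0.348 in mural, 0.359, 0.345 and 0.402 in neural and 0.254, 0.230 and 0.262 in microglia. The endothelial libraries lay above, and the microglia libraries below, all others. With the length of all merged exons, which is 3469 bases for *Fth1* against 929 in its principal transcript, the means were 0.312 ± 0.036, 0.165 ± 0.050, 0.137 ± 0.011 and 0.0922 ± 0.0062 (SD, n = 3) in the same order. In the wells, where length plays no part, the ratio was 2.11, 2.02 and 1.69 in endothelial, 0.983, 1.13 and 1.04 in mural, 0.790, 0.843 and 0.595 in microglia and 0.560, 0.546 and 0.354 in neural cells. The endothelial gate was again above all others, and the neural gate rather than the microglia gate was the lowest. The ratio was not tested.

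**Figure D4:**
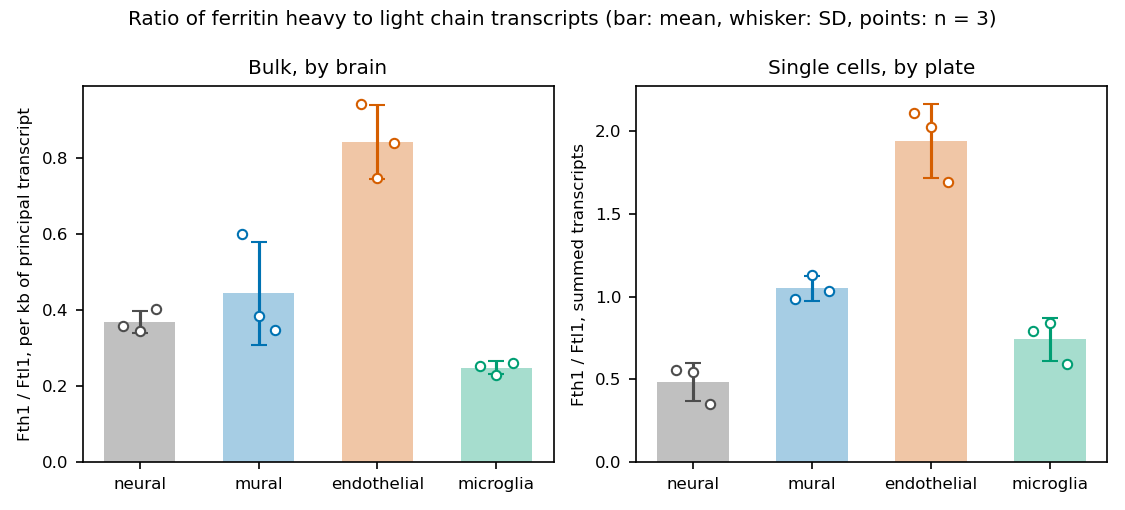
Ratio of *Fth1* to *Ftl1* transcripts in bulk libraries, per kilobase of principal transcript, and in summed single cells, with a bar at the mean, a whisker of 1 SD and a point per brain or plate. Endothelial cells have the highest ratio in both panels, with means of 0.843 and 1.94.

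The genes whose bulk pattern was most like that of each member were found by Pearson's r over the 12 libraries among 13137 genes, as a description. For *Tfrc* they were *Tecpr1* (0.991), *Rasip1* (0.990) and *Mpzl1* (0.984), for *Trf* *Abcg1* (0.996), *Nmi* (0.993) and *Fli1* (0.991), and for *Slc40a1* *Sh3tc1* (0.993), *Pdgfb* (0.989) and *Galt* (0.989). For *Slc11a2* they were *Dop1b* (0.990), *Mast1* (0.974) and *Dhx16* (0.968), and for *Ireb2* *Rprd2* (0.984), *Glis2* (0.980) and *Rbm4b* (0.976). For *Fth1* they were *Tmsb4x* (0.997), *Gmfg* (0.992) and *Fam133b* (0.991). Among the genes nearest to *Ftl1* were *C3ar1* (0.995) and *Cmtm7* (0.986), and among those nearest to *Hmox1* were *Atf3* (0.990) and *Vps26a* (0.986). The 12 libraries form 4 groups of 3, so such values follow the differences between populations.

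A further 58 genes of iron and heme handling were looked up, from reductases and heme carriers to heme synthesis, and 53 of them passed the bulk filter of 10 normalized counts on average (the heat map of other iron and heme genes). Against neural cells, 17 of the 53 were higher and 17 lower in mural, 21 higher and 11 lower in endothelial, and 20 higher and 14 lower in microglia cells. Between endothelial and mural cells 11 were higher and 5 lower, between microglia and mural 14 and 8, and between microglia and endothelial 11 and 10. Their median difference lay between -0.30 and 0.43 in the 6 pairs. The background shares given above apply to these counts too, and a list of this kind spans genes with opposite roles. Of the 58, only *Alas2*, the erythroid gene of the first step of heme synthesis, held a match to the iron-responsive element, in a UTR.

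**Figure D5:**
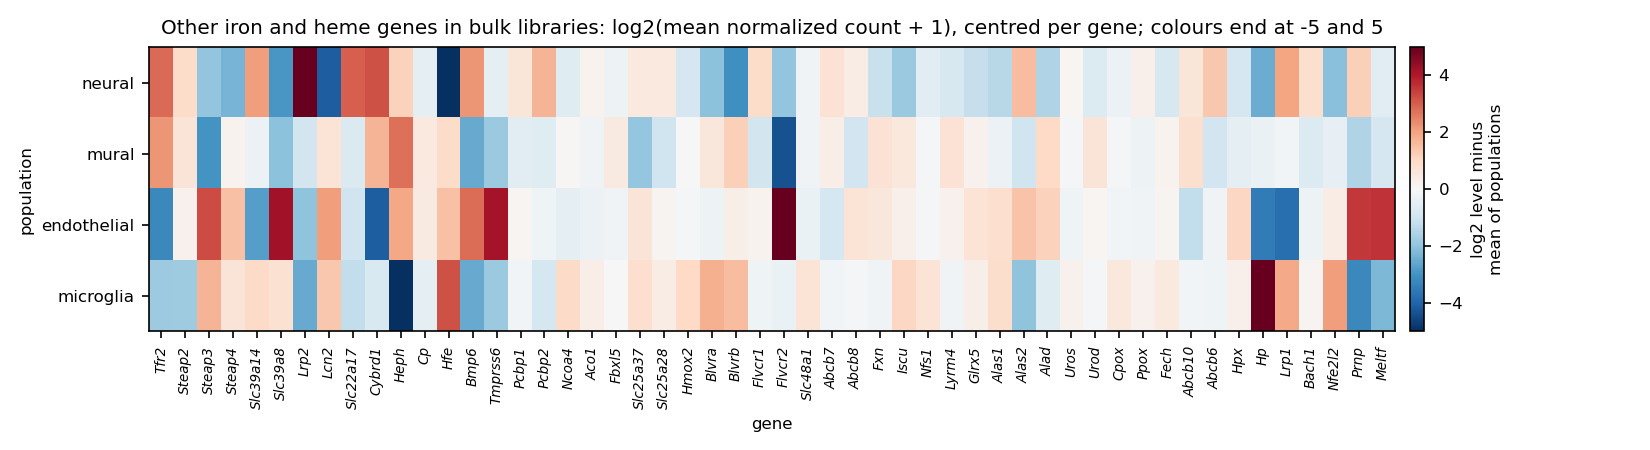
Levels of 52 of the 53 other iron and heme genes in the 4 bulk populations as log2(mean normalized count + 1) minus the gene's mean over populations, with colours ending at -5 and 5. The heme transporter *Flvcr2* and the metal transporter *Slc39a8* are red in the endothelial row, *Hp* and *Hfe* in the microglia row, and *Heph* is dark blue in the microglia row.

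Endothelial cells were high in a pair of carriers and in a reductase. *Flvcr2*, a transporter linked to heme and choline, stood at 2074 ± 711 normalized counts (SD, n = 3) against 4.12 in neural cells (8.64 ± 0.71, adjusted p = 2.5e-06) and 0 in all mural libraries, which makes it at least 824-fold higher against a floor of 3 reads per library. *Slc39a8* (ZIP8), a carrier of zinc, iron and manganese, stood at 15119 ± 2122 against 197 in mural (6.53, 1.7e-06) and 111 in neural cells (7.08, 2.8e-07). *Steap3*, a reductase of endosomal iron, stood at 569 ± 165 against 6.35 in mural cells (7.33, 0.00024). *Prnp*, which encodes the prion protein, stood at 11689 ± 1057 in endothelial cells and 109 ± 45.3 in microglia (-6.81, 3.6e-08). Lower in endothelial cells were *Tfr2*, the gene of transferrin receptor 2, at 0 in all 3 libraries and so at least 9.12-fold lower than in mural (42.9) and at least 14.1-fold lower than in neural cells (66.5), *Cybrd1*, a ferric reductase gene, at 0 and at least 33.4-fold lower than in neural cells (157), *Abcb10* at 190 against 784 in mural cells (-2.21, 0.0033), and *Lrp1*, a receptor of hemopexin-bound heme, at 190 against 2326 in mural cells (-3.73, 2.2e-05).

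The genes of this list named here as higher in microglia than in another population were *Hfe*, *Hp*, *Lrp1*, *Blvra*, *Steap3*, *Flvcr2* and *Lcn2*. *Hfe*, a partner of the transferrin receptors, stood at 1890 ± 284 normalized counts against 3.29 in neural cells (9.0 ± 0.57, adjusted p = 2.6e-07), and it was also higher than neural in endothelial (7.22, 1.8e-06) and mural cells (6.65, 3.5e-06). *Hp*, the gene of haptoglobin, which binds free hemoglobin, stood at 404, 427 and 1789 in microglia, at 0 in all endothelial libraries, and at 7.83 in mural (7.87, 0.00024) and 0.99 in neural cells (8.43, 8.0e-05). *Lrp1* stood at 9675 ± 375 in microglia and 10254 in neural cells, the former 5.82 above endothelial cells (3.4e-07), and *Blvra*, which turns the biliverdin made by heme oxygenase into bilirubin, at 2582 ± 365, 2.16 above (0.00046). *Steap3*, at 189, exceeded mural cells by 5.61 (0.00084), and *Flvcr2*, at 15.0, was at least 5.96-fold above them. *Lcn2*, a carrier of iron-binding siderophores, stood at 43.3 ± 29.1 against 0 in neural cells (at least 20.1-fold).

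*Heph*, the gene of hephaestin, a ferroxidase that works with ferroportin, was nearly absent from microglia, with 1 read in the 3 libraries. It stood at 548 ± 312 normalized counts in mural, 311 ± 87.1 in endothelial and 181 ± 7.17 in neural cells, and the ratio of mural to microglia levels was 1633.5 with a counting interval of 293 to 64541. Microglia also fell below mural cells in *Tfr2* (1.66 against 42.9, -4.22, adjusted p = 0.00044) and *Prnp* (-1.76, 0.00068), below endothelial cells in *Flvcr2* (-7.26, 1.5e-05), and below neural cells in *Cybrd1* (9.21 against 157, -5.33, 0.015). *Lrp2* (megalin) stood at 345 ± 65.1 in neural cells against 3.20 in mural (-7.28, 7.7e-05), with 2 reads in endothelial and 1 in microglia libraries. Neural cells also exceeded mural cells in *Slc22a17*, a receptor of lipocalin 2 (5932 against 450, -3.80, 3.7e-06) and in *Bmp6* (25.6 against 0, at least 10.2-fold). Mural cells exceeded neural cells in *Blvrb* (1064 against 53.7, 4.30, 2.5e-06).

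In the wells 31 of the 58 genes passed the filter, and 6, 10, 14, 6, 9 and 11 of them were called in the 6 pairs in the order used above. These were 19.4%, 32.3%, 45.2%, 19.4%, 29.0% and 35.5% of the 31, beside 33.1%, 36.4%, 44.3%, 20.7%, 37.7% and 36.2% of all genes tested. *Slc39a8* was again higher in endothelial than in mural cells (6.91 ± 0.50, adjusted p = 3.6e-17) and neural cells (5.92, 4.7e-15). *Prnp* was again higher in endothelial cells than in microglia (4.77 ± 0.40, 2.3e-15), and *Hfe* higher in microglia than in neural cells (7.65 ± 1.07, 2.2e-08). *Lrp1* was higher in microglia than in endothelial cells (4.37 ± 0.40, 3.6e-14). It was also higher than in neural cells in microglia (1.81 ± 0.31, 1.8e-06) and in mural cells (1.33, 0.00046), whereas in bulk mural minus neural was -2.15 (0.00038). *Nfe2l2*, the factor NRF2 that is known to drive *Hmox1* and the ferritin genes, and the one gene of the list called in all 6 pairs there, was chosen after its values were seen. It stood in microglia 5.53 ± 0.40 above neural cells (8.7e-18), 3.18 above mural (7.8e-14) and 2.17 above endothelial cells (1.9e-09), and its bulk libraries held 9711, 8533 and 9544 normalized counts in microglia against 2342 to 3307 in endothelial cells.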

How the data were processed

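Bulk RNA-seq values are normalized counts per gene (a signal on a common scale), deposited by the authors as 1 table of 12 libraries. Single-cell values are estimated transcript counts deposited by the authors per gene and well, corrected for identifier collisions (4096 identifiers): all 2023646 values above 0 followed that formula. The submitters' processing notes name BWA 0.6.2-r126, STAR, featureCounts, DESeq2 and mm10, with no role or order. Whether counting used strand is not given in the sources used here.

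In the bulk table, 100% of 124078 low values tested were whole multiples of 1 read within 0.01, so reads were recovered. limma 3.58.1 (with trend) was run on log2(normalized count + 1) over 19765 genes with a mean of at least 10, all 12 libraries in 1 fit, with Benjamini-Hochberg adjustment and calls at adjusted p under 0.05. edgeR 4.0.16 on recovered reads, the alternative, called 10929, 11286, 11756, 4670, 6755 and 5341 of 20752 genes in the 6 pairs (mural, endothelial and microglia against neural, endothelial and microglia against mural, microglia against endothelial), and limma called 10789, 11411, 11813, 5496, 7511 and 6401. Wild-type wells with more than 1500 transcripts, spike-ins left out, were summed by gate and plate, rounded and tested by edgeR's quasi-likelihood test. DESeq2 1.42.0 was an alternative. SEs there are the log2 difference over the root of F. Brains are separate animals by their numbers, but nothing says which brains a plate holds. Other alternatives were pseudocounts of 0.5 and 10, quantile normalization, no filter on low values, a block for brain or plate, a minimum of 3000 transcripts, thinning of cells, and each brain or plate left out. The ferritin ratio by principal transcript and the cells without transcripts of other lists were chosen after seeing the data.

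Intervals of shares are exact (Clopper-Pearson, 95%). On simulated data for endothelial against mural libraries (20050 genes), limma recovered 58 of 100 genes changed 2-fold and 96 of 100 changed 4-fold, and called 16 of 19850 unchanged genes. On simulated single-cell sums (6853 genes), edgeR recovered 29 and 98 of 100 and called 7 of 6653.

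The members, the pathway list and the marker lists were chosen with earlier results of these data known. Named genes were the 8 members, up to 3 pathway genes per pair and direction with the largest difference among those called without overlap of libraries, and the 3 genes most correlated with each member among genes with a mean of at least 100. A few genes that this rule names are not reported here.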

Additional observations from a re-analysis of the deposited data

Results flagged for a closer look

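Wells outside the 4 gates were not used in the comparisons. Wells sorted as PDGFRβ medium or low gave 23 cells with more than 1500 transcripts, and these held 71 transcripts of *Fth1*, 51 of *Ftl1* and 15 of *Ireb2*, above the 3 transcripts that a count of 0 allows. The other 5 members stood at 0 to 3 transcripts.

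Cell barcodes that belong to no well of their library, 1056 in all with a median of 95 transcripts each, also held member transcripts: 63 of *Fth1*, 27 of *Ftl1*, 12 of *Slc40a1*, 10 of *Tfrc*, 5 of *Trf* and 5 of *Ireb2*. On the CPM scale these barcodes held 581 of *Fth1*, 111 of *Slc40a1* and 92.3 of *Tfrc*. Where these transcripts came from was not tested. Groups of 3 libraries or plates are too small for the search for a sample far from the others.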

How the results depend on the processing

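Of 432 bulk differences of members under the alternatives, 417 kept their direction and side of the threshold, 8 lost and 3 gained the call, and 4 changed sign. Of 324 in the wells, 291 kept both, 17 lost and 9 gained the call, and 7 changed sign. None of those that changed sign had passed the test, and the cause was not tested. In bulk, endothelial minus mural of *Ftl1* became 0.16 under quantile normalization and ranged from -0.32 to 0.14 with a brain left out, and that of *Ireb2* from -0.19 to 0.091. With a plate left out, *Ireb2* ranged from -0.52 to 0.10 (mural minus neural), -0.42 to 0.008 (endothelial minus neural) and -0.16 to 0.36 (endothelial minus mural), *Hmox1* from -0.74 to 1.29 (endothelial minus mural) and *Trf* from -0.40 to 0.10 (microglia minus endothelial).

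With a brain left out, 3 to 5 members were called between endothelial and mural libraries. With a plate left out, 0 to 5 were called in the wells between mural and neural and 3 to 5 between endothelial and neural cells. The pathway genes called in the wells then ranged from 2 to 11 (mural minus neural), 3 to 15 (endothelial minus neural), 5 to 16 (microglia minus neural), 3 to 9 (endothelial minus mural), 3 to 12 (microglia minus mural) and 5 to 13 (microglia minus endothelial), and DESeq2 called 6, 9, 3, 5 and 6 in the last 5 of these pairs. Over all genes with a plate left out, the first 3 of these pairs had 1050 to 3709, 1265 to 4282 and 1832 to 4969 calls. The last 3 had 571 to 2561, 1446 to 4288 and 1291 to 4147. DESeq2 called 1966, 2840, 794, 2074 and 1905 of all genes in the last 5 pairs, against 3381, 4116, 1919, 3498 and 3358 by edgeR. Between endothelial and mural libraries limma called 3519 to 4060 genes with a brain left out, against 5496, and the 3519 were without the brain of N-343.

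The ferritin ratio per kilobase of merged exons in neural, mural, endothelial and microglia libraries became 0.369, 0.444, 0.843 and 0.249 by principal transcript, chosen after seeing the data, and 0.487, 1.05, 1.94 and 0.743 in the wells. Quantile normalization moved the median difference over all genes by up to 0.22 (endothelial minus neural).

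A block for the brain number left all 48 member differences in bulk, called or not, with their direction and side of the threshold. A block for the plate did so for 45 of 48 in the wells, and 3 gained the call: *Slc40a1* in mural minus neural (1.84, adjusted p = 0.048), *Ftl1* in endothelial minus neural (-0.58, 0.039) and *Fth1* in endothelial minus mural (0.87, 0.0020). Correlations of same-numbered samples' residuals ran from -0.05 to 0.08 in bulk and -0.03 to 0.10 on plates. Their medians were 0.0064 and 0.048, against -0.0042 and -0.021 for samples with other numbers. Weak correlations do not undo a pairing that brain and plate numbers set, and the main fits held no term for it. In microglia-gate cells without a transcript of 6 border macrophage genes (53 of 128, chosen after seeing the data), *Hmox1* stood at 79.5 CPM against 200 in the other 75, *Fth1* at 1111 against 2014, *Ftl1* at 1731 against 2296, *Slc40a1* at 60.7 against 61.7 and *Tfrc* at 48.1 against 41.5. The 6 include *Stab1*, found in 41.4% of that gate and 47.1% of endothelial cells, so this split does not separate cell types, and the part of depth was not tested. The like split of endothelial cells is not given, as its lists hold *Stab1* and *Rgs5*. Depth limits *Slc11a2*, *Slc40a1*, *Trf* and *Hmox1* in neural and mural cells, and all values from plate 3.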
